A study of Mus musculus with 26 samples.

Results

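The BCL2 family governs whether the outer mitochondrial membrane stays closed or is opened during apoptosis. BH3-only proteins such as BMF and BIM carry death signals, pro-survival proteins such as BCL-2 and MCL-1 bind and restrain them, and effectors such as BAK form the pores through which cytochrome c escapes. In fibroblasts this balance is known to respond to loss of anchorage, withdrawal of growth factors and DNA damage. The 10 genes described here were 4 BH3-only genes (Bmf, Bcl2l11, Bad and Bid), 2 effectors (Bak1 and Bok) and 4 pro-survival genes (Bcl2, Bcl2l1, Bcl2l2 and Mcl1). They were found by symbol among 20430 genes in the RNA tables and 19941 genes in the footprint tables, and all 10 had a row in both. Bmf had been picked out by its low RNA level after 2 h H2O2, so its values there, and in the other comparisons that use those H2O2 libraries or their control, are a description and carry no test. The other 9 genes were added because they belong to the same family.

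NIH3T3, a mouse cell line established from embryonic fibroblasts, was stressed by heat (2 h at 44 °C or 8 h at 42 °C), by H2O2, an oxidant (2 h or 7 h), or by KCl, an osmotic stress (2 h or 7 h). The 8 RNA groups were these 6 and 2 control groups, one for heat and one shared by H2O2 and KCl. Ribosome footprints, the mRNA fragments that ribosomes protect, were measured in 5 groups, namely the 4 H2O2 and KCl groups and their control. Each group had 2 replicate libraries, 26 in all. The labels did not say whether replicates were separate cultures, so the tests measure the spread between these libraries, which may be technical, and they gave no concentration of H2O2 or KCl. In bulk RNA, fewer cells that make a transcript and less of it per cell cannot be told apart.

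RNA libraries held 24441877 to 45244430 counts and footprint libraries 1460751 to 5168537. Replicates correlated across genes, which are not independent replicates, with r of 0.994 to 0.996 for RNA and 0.957 to 0.978 for footprints. All 8 fibroblast markers, among them Col1a1, Vim and Thy1, had at least 1 TPM (transcripts scaled to a common total per library, a level corrected for transcript length) in every RNA library, with a summed level of 3797 to 10863 TPM. At least 1 TPM in every library was found for 1 of 4 epithelial markers (summed level 7.89 to 19.6 TPM), 1 of 5 blood cell markers (5.42 to 44.8 TPM, with Cd3e at 0) and 0 of 3 endothelial markers (0.34 to 3.18 TPM). Some of these markers moved with the stresses. All 8 fibroblast markers were lower at 44 °C (median log2 fold change -0.44) and with 7 h H2O2 (-1.31), beside 35.7% and 31.1% of all genes. At 42 °C 5 were lower and 2 higher (all genes 31.9% and 31.7%). With 2 h KCl 5 were higher and 0 lower (27.2% and 27.0%). Directions were mixed with 2 h H2O2 (2 higher, 3 lower, all genes 27.3% and 26.5%) and 7 h KCl (3 higher, 4 lower, 37.2% and 31.6%). Of 4 epithelial markers 3 were higher at 44 °C (all genes 35.4%), 2 at 42 °C, 2 with 2 h H2O2 and 2 with 7 h KCl. With 7 h H2O2 1 was higher and 1 lower, and with 2 h KCl 1 was higher. Under H2O2 and KCl 2 blood cell markers passed the filter, Cd68 and Itgam. Both were higher with 2 h H2O2 and 2 h KCl (medians 3.93 and 3.08). With 7 h H2O2 1 was higher, and with 7 h KCl 1 was higher and 1 lower. Of 3 endothelial markers 2 passed there, both higher with 2 h H2O2, 7 h H2O2 and 2 h KCl (medians 3.15, 1.58 and 2.05). With 7 h KCl 1 of these was higher. In heat 1 endothelial marker passed, higher at 44 °C and 42 °C (1.64 and 1.77). Over all genes 27.2% to 39.4% were higher in these comparisons. Itgam and Pecam1 did not pass in heat, and a scarce marker that passes through stressed groups alone is favoured to be called higher. The part of all these markers in the results was not tested.

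The 250 bases directly upstream of the RefSeq start sites of 3 genes are shown (for Bmf the most upstream of 3 start sites and for Bcl2l11 of 2) because these genes carried the main RNA patterns: Bmf and Bcl2l11 moved most among the BH3-only genes, and Bak1 was lower under every stress. The sequences are from RefSeq (GRCm38.p6, the mm10 assembly), written 5′ to 3′ on the strand of the gene, with each match to a searched motif in capitals.
Bmf, chr2:118549687-118549936, minus strand: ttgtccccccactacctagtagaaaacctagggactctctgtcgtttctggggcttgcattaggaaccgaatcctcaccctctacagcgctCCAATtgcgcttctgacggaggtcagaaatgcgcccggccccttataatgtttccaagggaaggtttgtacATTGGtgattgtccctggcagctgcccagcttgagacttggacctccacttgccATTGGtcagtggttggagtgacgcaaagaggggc
Bcl2l11, chr2:128125788-128126037, plus strand: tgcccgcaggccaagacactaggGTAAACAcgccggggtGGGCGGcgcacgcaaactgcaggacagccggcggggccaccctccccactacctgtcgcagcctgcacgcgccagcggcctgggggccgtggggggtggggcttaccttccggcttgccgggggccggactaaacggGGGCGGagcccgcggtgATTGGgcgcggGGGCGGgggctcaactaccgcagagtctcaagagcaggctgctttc
Bak1, chr17:27028628-27028877, minus strand: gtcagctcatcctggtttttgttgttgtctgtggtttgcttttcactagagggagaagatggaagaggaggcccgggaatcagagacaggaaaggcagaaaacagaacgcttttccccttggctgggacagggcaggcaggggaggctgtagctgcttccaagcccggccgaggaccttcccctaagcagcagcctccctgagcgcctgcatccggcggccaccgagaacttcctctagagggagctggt

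The motifs, searched on both strands, were the GC box (GGGCGG), the TATA box (TATAAA), the CCAAT box (CCAAT), the FOXO core (TGTTTAC), the AP-1 site (TGANTCA), the CRE (TGACGTCA), the core of the antioxidant response element (TGACNNNGC) and the C/EBP-ATF element (TGATGNAA). The Bmf window shown held the CCAAT box 3 times, starting 159, 88 and 34 bases before the start site, and none of the other 7 motifs. Of the windows of the other Bmf start sites, the second held 1 CCAAT box and the last none of the motifs. CCAAT is a short word, present in 33.8% of the 32807 RefSeq windows of this length. The Bcl2l11 window shown held 3 GC boxes (in 32.7% of all windows), 1 CCAAT box and 1 FOXO core (in 3.16% of all windows), and no matches overlapped; its other window held 2 GC boxes and 2 CCAAT boxes. In the Bak1 window none of the 8 motifs was found. GC content was 54.0% for Bmf, 72.0% for Bcl2l11 and 58.4% for Bak1, beside a median of 52.4% over all windows, and the windows held 8, 24 and 8 CpG pairs beside a median of 6. Of the 16 windows of all 10 genes, 8 windows of 7 genes held the GC box and 5 windows of 3 genes the CCAAT box. The FOXO core occurred in 1 window, of Bcl2l11. The antioxidant core, present in 10.2% of all windows, also occurred in 1, the last of 3 for Bcl2l1. The other 4 motifs, present in 1.55% to 12.4% of all windows, occurred in none. These are matches of letters, not shown to be bound.

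Bmf, a BH3-only gene whose protein is known for its release from the cytoskeleton when cells detach, had the widest range of the 10 genes. Its RNA level, in CPM (counts scaled to a common library total, with TMM), was 20.4 and 23.6 in the heat control, 28.8 and 30.0 under 44 °C, and 4.83 and 4.90 under 42 °C. The 44 °C libraries lay above the control and the 42 °C libraries below it, with no overlap. In the second experiment Bmf stood at 15.8 and 16.3 CPM in the control, 1.90 and 1.27 with 2 h H2O2, 1.09 and 1.86 with 7 h H2O2, 3.0 and 3.10 with 2 h KCl, and 23.5 and 25.5 with 7 h KCl. Both H2O2 groups and the early KCl group were low, the H2O2 times overlapped each other, and the late KCl group was above the control. No library of a low group came near a control library.

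**Figure D1:**
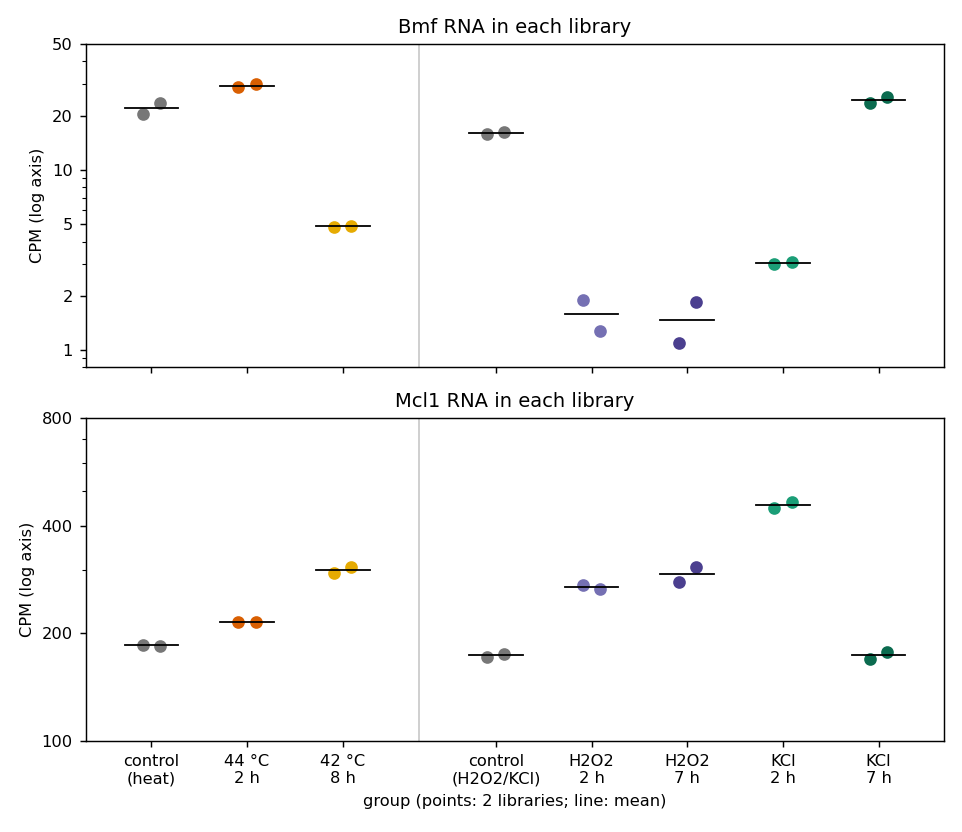
RNA level (CPM, log axis) of Bmf, top, and Mcl1, bottom, in each of the 16 RNA libraries, by group; points are libraries and lines are means of 2. Bmf lies between 1.09 and 4.90 CPM at 42 °C, under H2O2 and with 2 h KCl and above 15 CPM elsewhere, while Mcl1 is highest, at 448 and 464 CPM, with 2 h KCl.

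Bmf moved in opposite directions in the 2 heat regimes, in libraries that took no part in its choice. Bmf rose 1.34-fold at 44 °C for 2 h (log2 fold change 0.42 ± 0.07, standard error; adjusted p 0.000115 in edgeR's quasi-likelihood test). At 42 °C for 8 h it fell 4.51-fold (-2.17 ± 0.10, edgeR adjusted p 2.40e-10), which placed it 77th from the lowest of 12747 genes tested. Set against each other, the 42 °C libraries were 6.04-fold below the 44 °C libraries (-2.59 ± 0.09, edgeR adjusted p 1.47e-11). Temperature and duration differed together, so the share of each cannot be told apart.

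Under KCl the level of Bmf turned with time. It was 8.01-fold higher at 7 h than at 2 h (log2 fold change 3.0 ± 0.15, edgeR adjusted p 9.93e-10). At 7 h the H2O2 libraries were 17.0-fold below the KCl libraries (-4.09 ± 0.17, edgeR adjusted p 2.89e-11). Given as a description, Bmf differed from the shared control by -3.34 ± 0.17 with 2 h H2O2, -3.48 ± 0.17 with 7 h H2O2, -2.39 ± 0.16 with 2 h KCl and 0.61 ± 0.12 with 7 h KCl. Among 13256 genes it was 8th from the lowest with 2 h H2O2, 28th with 7 h H2O2 and 175th with 2 h KCl. Between the H2O2 times the difference was -0.14 ± 0.25, less than its error, and it changed sign when single libraries were left out (0.15 without the first 2 h library, 0.22 without the first 7 h library). H2O2 and KCl at 2 h differed by -0.95 ± 0.22.

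Other genes were ranked by how closely their RNA followed Bmf over the 16 RNA libraries, each library set against the control mean of its experiment. Of 10610 genes, the 5 with the highest Pearson r were Rgma (0.952), Abhd14b (0.952), Dffa (0.950), Atg2a (0.942) and Klhl18 (0.942). The points share controls and treatments, and these values are a description. Their changes were smaller: Rgma, a membrane-anchored guidance molecule, differed from control by -0.92 ± 0.09 at 42 °C, -1.54 ± 0.12 with 2 h H2O2, -1.20 ± 0.12 with 7 h H2O2 and -1.16 ± 0.12 with 2 h KCl, and by -0.09 ± 0.11 with 7 h KCl. Dffa, the inhibitor of the caspase-activated DNase, differed by -0.73 ± 0.10 with 2 h H2O2 and 0.20 ± 0.10 with 7 h KCl. Within the family Bad came closest (r 0.520) and Mcl1 ran most opposite (r -0.771).

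Bcl2l11, which encodes BIM, another BH3-only protein, was higher at 44 °C and with 7 h KCl, as Bmf was, but stayed far nearer its control in the groups in which Bmf was low. It stood at 35.5 and 35.8 CPM in the heat control, 68.0 and 68.1 under 44 °C, and 29.0 and 31.9 under 42 °C. The 44 °C libraries were far above the control, and no library of one heat group reached another. Bcl2l11 rose 1.91-fold at 44 °C (0.93 ± 0.05, edgeR adjusted p 2.63e-09) and fell slightly at 42 °C (-0.23 ± 0.06, edgeR adjusted p 0.00329), a fall that did not pass without the first 42 °C library (-0.16, adjusted p 0.0678). The regimes differed from each other by -1.16 ± 0.06 (edgeR adjusted p 2.58e-10). In the second experiment the control held 28.4 and 30.3 CPM, 7 h H2O2 39.3 and 45, and 7 h KCl 52.6 and 58.6, without overlap. It rose by 0.52 ± 0.09 with 7 h H2O2 and by 0.92 ± 0.09 with 7 h KCl on the log2 scale (edgeR adjusted p 9.64e-05 and 3.96e-07). At 2 h it was at -0.05 ± 0.09 under H2O2, where it overlapped the control, and at 0.23 ± 0.09 under KCl, a rise (adjusted p 0.0400) that no longer passed without any single library of the 4 compared (0.18 and 0.28 without the first and second control, 0.25 and 0.21 without the first and second KCl library).

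Bad, a BH3-only protein held in check by phosphorylation, was the most abundant BH3-only transcript in both controls on the TPM scale. It stood at 30.2 and 30.7 CPM in the H2O2/KCl control and at 20.9 to 24.7 CPM in the H2O2 groups and the late KCl group. Bad fell by 0.35 with 2 h H2O2, 0.44 with 7 h H2O2 and 0.38 with 7 h KCl on the log2 scale (standard errors 0.07, 0.08 and 0.08). With 2 h KCl it was at -0.11 ± 0.08, at 44 °C at 0.13 ± 0.06 and at 42 °C at -0.07 ± 0.06, none of which passed the edgeR test. At 44 °C it did pass without the second control library (0.17, adjusted p 0.0442), with RLE scaling (adjusted p 0.0407) and with the replicate block (adjusted p 0.0478). With limma on log2(TPM + 1) all 3 passed, at -0.21 with 2 h KCl (adjusted p 0.0257), 0.19 at 44 °C (adjusted p 0.00321) and -0.27 at 42 °C (adjusted p 0.000519). Bid, which links death receptors to mitochondria once caspase-8 cuts it, had 42.2 and 40.5 CPM in the control and 26.5 and 27.4 with 2 h KCl. It fell by 0.62 with 2 h KCl and by 0.33 with 7 h KCl (standard errors 0.08) and rose by 0.33 ± 0.06 at 44 °C. Under H2O2 Bid was at -0.09 ± 0.07 at 2 h and at 0.14 ± 0.07 at 7 h, and at 42 °C at 0.08 ± 0.06. With the second 7 h library left out, the late H2O2 value passed (0.22, adjusted p 0.0375).

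The effectors were lower under most stresses. Bak1, whose protein forms pores in the outer mitochondrial membrane, had 134 and 140 CPM in the H2O2/KCl control, 91.4 and 97.4 with 2 h H2O2, 84.9 and 77.5 with 7 h H2O2, 94.5 and 80.2 with 2 h KCl, and 89.6 and 81.7 with 7 h KCl. All 8 stressed libraries lay below both control libraries. In the heat experiment Bak1 went from 126 and 132 CPM in the control to 98.1 and 102 under 44 °C and 114 and 113 under 42 °C. It fell in all 6 comparisons with control, by 0.37 at 44 °C, 0.19 at 42 °C, 0.53 and 0.75 with 2 h and 7 h H2O2, and 0.65 and 0.67 with 2 h and 7 h KCl on the log2 scale (standard errors 0.04 for heat and 0.08 otherwise). The edgeR adjusted p of these ranged from 1.06e-06 to 0.00168. The 4 H2O2 and KCl comparisons share their control libraries, as do the 2 heat comparisons, so these falls are not independent of each other.

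Bok, an effector that is known to act without the restraint of the pro-survival proteins, had its lowest level with 7 h KCl. It held 33.2 and 34.8 CPM in the control, 26.5 and 26 with 2 h H2O2, 20.7 and 21.2 with 7 h H2O2, 26.5 and 28.1 with 2 h KCl, and 11.2 and 12.9 with 7 h KCl. No stressed library reached the control. The fall with 7 h KCl was 2.83-fold (-1.50 ± 0.08, edgeR adjusted p 2.27e-09), and Bok also fell by 0.37 and 0.70 with 2 h and 7 h H2O2, 0.32 with 2 h KCl and 0.40 at 44 °C. At 42 °C it was at 0.02 ± 0.07 and overlapped the control. On log2(TPM + 1), without a correction for composition, it was at -0.17, which passed (limma adjusted p 0.0221). Between 2 h and 7 h KCl Bok fell by 1.18 ± 0.09 (edgeR adjusted p 2.73e-08), while Bmf rose over the same interval.

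Mcl1, a short-lived pro-survival protein, had the largest rise of the 10 genes with 2 h KCl. Its RNA was at 172 and 176 CPM in the control, 274 and 266 with 2 h H2O2, 278 and 307 with 7 h H2O2, 448 and 464 with 2 h KCl, and 170 and 178 with 7 h KCl. The early KCl libraries stood above all others and the late KCl libraries overlapped the control. Mcl1 rose 2.63-fold with 2 h KCl (1.39 ± 0.06, edgeR adjusted p 5.49e-10) and was at -0.00 ± 0.06 at 7 h, a fall of 1.39 ± 0.06 between the times (edgeR adjusted p 3.49e-10). Under H2O2 it rose by 0.64 ± 0.06 at 2 h and 0.75 ± 0.06 at 7 h. In the heat experiment it went from 186 and 184 CPM to 215 and 216 at 44 °C (0.22 ± 0.04) and to 295 and 307 at 42 °C (0.70 ± 0.04, edgeR adjusted p 3.94e-09). Mcl1 was raised in each of the 4 groups in which Bmf was low, and also at 44 °C, where Bmf was not.

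Bcl2l1, which encodes the pro-survival protein BCL-XL, changed mainly with 7 h H2O2. It held 56.4 and 57.5 CPM in the control, 49.8 and 48.8 with 2 h H2O2, and 131 and 136 with 7 h H2O2. The late H2O2 libraries stood far above all others of the experiment, with the KCl groups at 59.9 to 67.6 CPM. The rise at 7 h was 2.34-fold (1.23 ± 0.06, edgeR adjusted p 2.22e-10) and the change between the H2O2 times 1.44 ± 0.06 (edgeR adjusted p 5.98e-11). With 2 h H2O2 Bcl2l1 fell by 0.21 ± 0.06 (adjusted p 0.0105), a call that did not pass without the second 2 h library (-0.20, adjusted p 0.0684) or the second control library (-0.20, adjusted p 0.0546). It rose slightly with 7 h KCl (0.22 ± 0.06, but 0.088 with adjusted p 0.218 by limma on log2(TPM + 1)) and at 42 °C (0.16 ± 0.05, but -0.037 on log2(TPM + 1)), and was at 0.13 ± 0.06 with 2 h KCl and 0.06 ± 0.05 at 44 °C. Without the second 2 h KCl library the value with 2 h KCl passed (0.19, adjusted p 0.0329).

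Bcl2, the founding pro-survival gene, was scarce in these cells and moved in opposite directions with time. It had 5.79 and 7.13 CPM in the control, 8.22 and 10.2 with 2 h H2O2, 3.70 and 3.52 with 7 h H2O2, 8.76 and 9.93 with 2 h KCl, and 2.86 and 3.13 with 7 h KCl. The early groups lay above the control and the late groups below it under both agents. It rose by 0.52 ± 0.13 and 0.54 ± 0.13 at 2 h and fell by 0.83 and 1.10 with 7 h H2O2 and KCl (standard errors 0.15 and 0.16). The falls between 2 h and 7 h were 1.35 ± 0.15 under H2O2 and 1.65 ± 0.16 under KCl (edgeR adjusted p 1.52e-06 and 5.42e-07). The early rises rested on single libraries: under H2O2 the value was 0.35 (adjusted p 0.0778) without the second 2 h library and 0.36 (adjusted p 0.0692) without the first control library, and under KCl 0.39 (adjusted p 0.0563) without the first control library. At 44 °C Bcl2 was at -0.08 ± 0.10, and at 42 °C it rose by 0.27 ± 0.09 (edgeR adjusted p 0.0235), which did not pass with DESeq2 (adjusted p 0.113), without the first 42 °C library (0.23) or without the first control library (0.17).

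Bcl2l2, which encodes BCL-W, lies next to Pabpn1, into which read-in was called in part of the libraries, and the sources used here do not state how reads of transcripts that span both genes were assigned. The part of this in the values of Bcl2l2 was not tested. Its counts rose most at 44 °C, from 54.9 and 56.4 CPM to 86.9 and 86.9 (0.64 ± 0.04, edgeR adjusted p 1.46e-08). At 42 °C it overlapped the control (0.04 ± 0.05). On log2(TPM + 1) it was at -0.13 there, which passed (limma adjusted p 0.0464). With 7 h H2O2 it rose by 0.40 ± 0.07, with 70.2 and 71.6 CPM against 51.7 and 55.9 in the control. Smaller changes were called with 2 h H2O2 (0.23 ± 0.07), 2 h KCl (-0.23 ± 0.07) and 7 h KCl (0.23 ± 0.07, but -0.067 on log2(TPM + 1)). Each of these 3 failed the test when single libraries were left out: with 2 h H2O2 without the first H2O2 library (0.15) or the first control library (0.17), with 2 h KCl without the second control library (-0.18), and with 7 h KCl without the first control library (0.17) or the first KCl library (0.12).

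**Figure D2:**
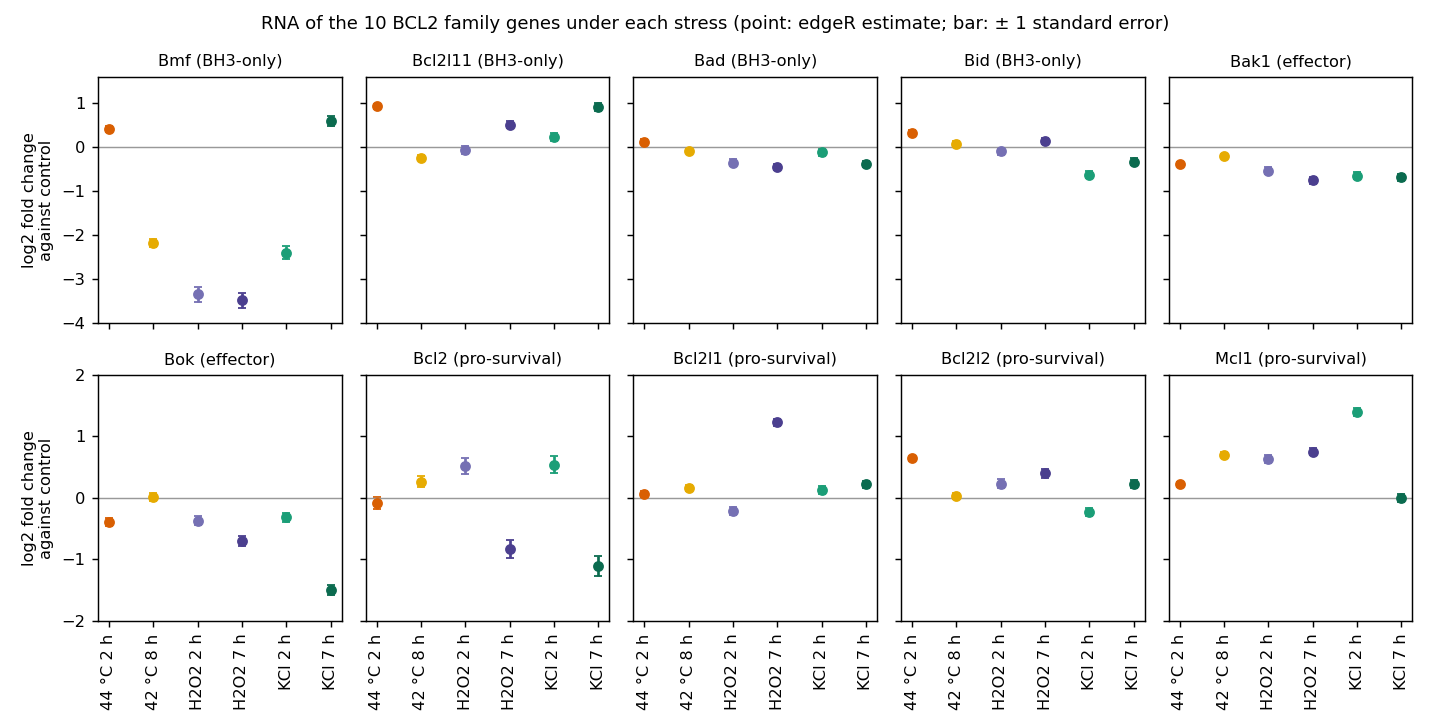
RNA log2 fold change against control (y axis) of each of the 10 genes in the 6 stress groups (x axis); points are edgeR estimates and bars 1 standard error, with a wider y range in the top row. Bmf reaches -3.48 with 7 h H2O2, Bak1 is below 0 in all 6 groups, and Mcl1 peaks at 1.39 with 2 h KCl.

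Counted over the 9 genes other than Bmf, changes that passed the edgeR test (adjusted p under 0.05) are given beside the share of all genes that passed, since most genes changed in these experiments. At 44 °C 6 of 9 changed (4 higher, 2 lower), beside 71.0% of all genes tested (35.4% higher, 35.7% lower), and at 42 °C 5 of 9 (3 higher, 2 lower), beside 63.6% (31.7% higher, 31.9% lower). H2O2 changed 7 of 9 at 2 h (3 higher, 4 lower; all genes 53.9%, with 27.3% higher and 26.5% lower) and 8 of 9 at 7 h (4 higher, 4 lower; all genes 70.5%, with 39.4% higher and 31.1% lower). KCl changed 7 of 9 at 2 h (3 higher, 4 lower; all genes 54.2%, with 27.2% higher and 27.0% lower) and 8 of 9 at 7 h (3 higher, 5 lower; all genes 68.8%, with 37.2% higher and 31.6% lower). The median log2 fold change of the 9 genes ran from -0.33 with 7 h KCl to 0.14 with 7 h H2O2, where the median of all genes was 0.04 and 0.08. Without the first 42 °C library the count there was 3. All 8 fibroblast markers were also lower at 44 °C and with 7 h H2O2, as given above.

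The same count was made between treatments. The heat regimes differed for 8 of 9 genes (4 higher and 4 lower at 42 °C; all genes 75.1%, with 37.9% higher and 37.2% lower). The H2O2 times differed for 7 (4 higher and 3 lower at 7 h; all genes 73.4%, with 37.3% higher and 36.1% lower), but for 4 without the second 2 h H2O2 library, and the KCl times for 7 (3 higher and 4 lower at 7 h; all genes 68.8%, with 35.1% higher and 33.7% lower). At matched times H2O2 and KCl differed for 6 of 9 genes at 2 h (2 higher and 4 lower under H2O2; all genes 51.3%, with 27.0% higher and 24.2% lower) and for 6 of 9 at 7 h (5 higher and 1 lower; all genes 78.4%, with 41.0% higher and 37.4% lower). The largest differences of the 9 at matched time were Mcl1 at 2 h, lower under H2O2 by 0.76 ± 0.06 on the log2 scale, and Bcl2l1 at 7 h, higher under H2O2 by 1.01 ± 0.06.

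On the TPM scale, which allows genes to be compared, Bak1 was the highest of the 10 genes in both controls (143 and 151, and 151 and 159 TPM), followed by Mcl1 and Bad. Bcl2l2, Bcl2l11, Bmf and Bcl2 closed the order in both, the last at 1.95 to 3.6 TPM. In the H2O2/KCl control Bok overlapped both of its neighbours in the order, Bcl2l1 and Bid. Under each of the 6 stresses Mcl1 stood first, and Bak1 was second in all but 7 h H2O2, where Bcl2l1 (111 and 116 TPM) passed it. Bmf was last in the 4 groups in which it was low, and Bcl2 in the other groups.

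Summed TPM gave a description of the balance between classes. The 4 pro-survival genes together stood at 1.31 to 1.37 times the 4 BH3-only genes in the 4 control libraries. The ratio was 1.31 and 1.26 at 44 °C, 2.04 and 2.09 at 42 °C, 2.10 and 2.15 with 2 h H2O2, 2.52 and 2.90 with 7 h H2O2, 3.17 and 3.19 with 2 h KCl, and 1.52 and 1.45 with 7 h KCl. The groups with a low Bmf had the high ratios, while Bmf made up only 5.32% to 7.44% of the BH3-only sum in controls. The share of Mcl1 in the summed level of all 10 genes was 20.1% to 22.6% in controls and 44.9% and 47.0% with 2 h KCl. In footprints the ratio was 1.41 and 1.92 in the control, 2.07 and 2.71 with 7 h H2O2, and 2.59 and 2.19 with 2 h KCl. The control overlapped the groups with 2 h H2O2 and 7 h KCl.

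These ratios depended on which BH3-only genes were summed. When Pmaip1, Bbc3, Bik and Hrk, BH3-only genes outside the 10, were added to the sum, a choice made after the data were seen, the RNA ratio was 1.15 and 1.16 in the H2O2/KCl control and 0.799 and 0.792 with 7 h H2O2. That group then lay below its control instead of above it. The wider ratio was 1.28 and 1.29 with 2 h H2O2, 2.21 and 2.11 with 2 h KCl, and 1.13 and 1.06 with 7 h KCl, the last below the control. It was 1.68 and 1.68 at 42 °C, above 1.13 and 1.11 in the heat control, and 1.10 and 1.06 at 44 °C, below it. In footprints it was 1.14 and 1.29 in the control, 0.898 and 0.756 with 2 h H2O2, and 0.494 and 0.398 with 7 h H2O2. With 2 h KCl it was 1.22 and 1.11 and with 7 h KCl 1.02 and 1.44, both overlapping the control.

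**Figure D3:**
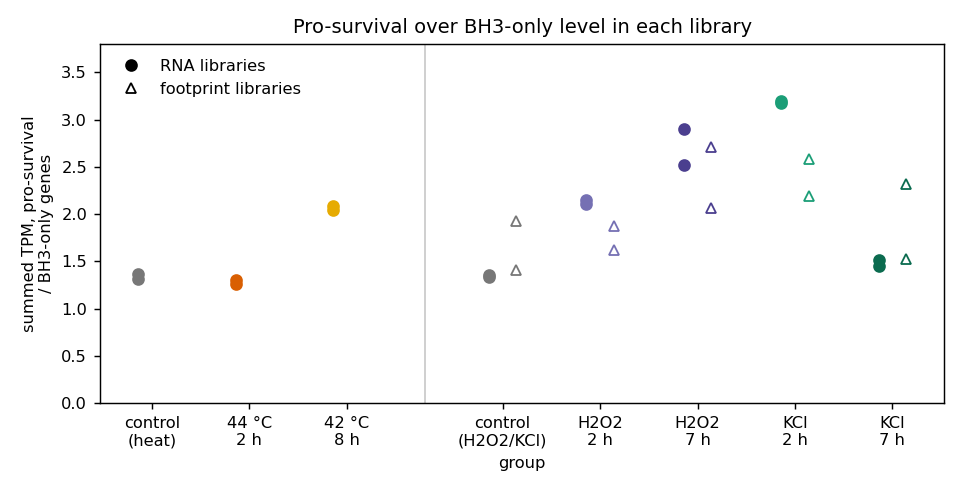
Summed TPM of the 4 pro-survival genes divided by that of the 4 BH3-only genes (y axis) in each library by group (x axis); filled circles are RNA and open triangles footprint libraries. The RNA ratio is 1.31 to 1.37 in the controls and 3.17 and 3.19 with 2 h KCl, and footprint replicates are further apart; Pmaip1 and other BH3-only genes outside the 10 are not in the sum, and with them the ratio with 7 h H2O2 is 0.799 and 0.792.

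Ribosome footprints gave fewer calls than RNA, from far shallower libraries. Bmf had 2 and 0 footprint counts in the control, 1 and 0 with 2 h H2O2, 0 and 2 with 7 h H2O2, 0 and 0 with 2 h KCl, and 5 and 3 with 7 h KCl, too few for a comparison. Bcl2, with 7 and 7 counts in the control, 4 and 11 with 2 h H2O2, 5 and 0 with 7 h H2O2, 7 and 3 with 2 h KCl, and 0 and 2 with 7 h KCl, also did not pass the filter on low counts. Of the 8 genes tested, none changed in footprints with 2 h H2O2 (1 at an unadjusted p under 0.05; all genes 1.91%) or with 2 h KCl (1 at an unadjusted p under 0.05; all genes 6.86%). With DESeq2 the count with 2 h KCl was 1 (Mcl1, adjusted p 0.0349), and with 2 h H2O2 it was 0. With 7 h H2O2 2 of 8 rose (all genes 27.7%, with 17.2% higher) and with 7 h KCl 1 of 8 fell (all genes 20.4%, with 9.83% lower).

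Mcl1 had the most footprint counts of the 10 genes in the control (817 over both libraries). Its footprints stood at 101 and 110 CPM in the control, 98.0 and 101 with 2 h H2O2, 162 and 194 with 7 h H2O2, 168 and 162 with 2 h KCl, and 109 and 132 with 7 h KCl. The late H2O2 and early KCl libraries were above the control, and the early H2O2 libraries were not. With 7 h H2O2 its footprints rose by 0.75 ± 0.18 (edgeR adjusted p 0.00767), a call lost without the second 7 h library (0.57, adjusted p 0.114) or the first control library (0.64, adjusted p 0.0804). Translational efficiency, the footprints relative to RNA, fell for Mcl1 by 0.76 ± 0.18 with 2 h H2O2 and by 0.76 ± 0.17 with 2 h KCl on the log2 scale (edgeR interaction test, adjusted p 0.0117 and 0.00789). Both calls held under all 13 alternatives run for each, with adjusted p of 0.00761 to 0.0443 and 0.00612 to 0.0346. At 7 h it was at -0.00 ± 0.18 under H2O2 and 0.21 ± 0.18 under KCl. At 2 h the Mcl1 footprint differences, -0.09 ± 0.18 under H2O2 and 0.64 ± 0.18 under KCl (edgeR adjusted p 0.0523), did not pass, beside RNA rises of 0.64 and 1.39.

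Bcl2l11 footprints, at 3.42 and 3.30 CPM in the control, were 9.96 and 11.2 with 7 h H2O2. The rise was 3.13-fold (1.65 ± 0.47, edgeR adjusted p 0.0182), beside a rise of 0.52 in RNA, and the efficiency difference of 1.13 ± 0.39 did not pass (adjusted p 0.0819). The footprint call rested on all 4 libraries, with values of 1.51 to 1.68 and adjusted p of 0.0721 to 0.112 when any of them was left out. Bak1 footprints fell with 7 h KCl, from 78.3 and 84.4 to 50.7 and 57.3 CPM (-0.59 ± 0.18, edgeR adjusted p 0.0389). That call was likewise lost without any of the 4 libraries, at values of -0.50 to -0.68, and with DESeq2 (adjusted p 0.0876). Bcl2l1, whose RNA rose with 7 h H2O2, had a footprint difference of 0.63 ± 0.27 there that did not pass (adjusted p 0.102). Fitted on the 2 groups alone it did (0.63, adjusted p 0.0389).

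For translational efficiency, 1 of 8 genes changed with 2 h H2O2 (all genes 11.4%, with 7.46% lower) and 1 of 8 with 2 h KCl (all genes 12.8%, with 9.18% lower), Mcl1 in both. None passed the edgeR test with 7 h H2O2 (2 at an unadjusted p under 0.05; all genes 9.27%) or with 7 h KCl (0 at an unadjusted p under 0.05; all genes 5.57%). With 2 h H2O2 the first footprint library was the shallowest, with 1460751 counts beside 5168537 in the second. Without it Bcl2l1 also passed (-1.06, adjusted p 0.00542), and without the second library Bok did (1.17, adjusted p 0.0421).

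**Figure D4:**
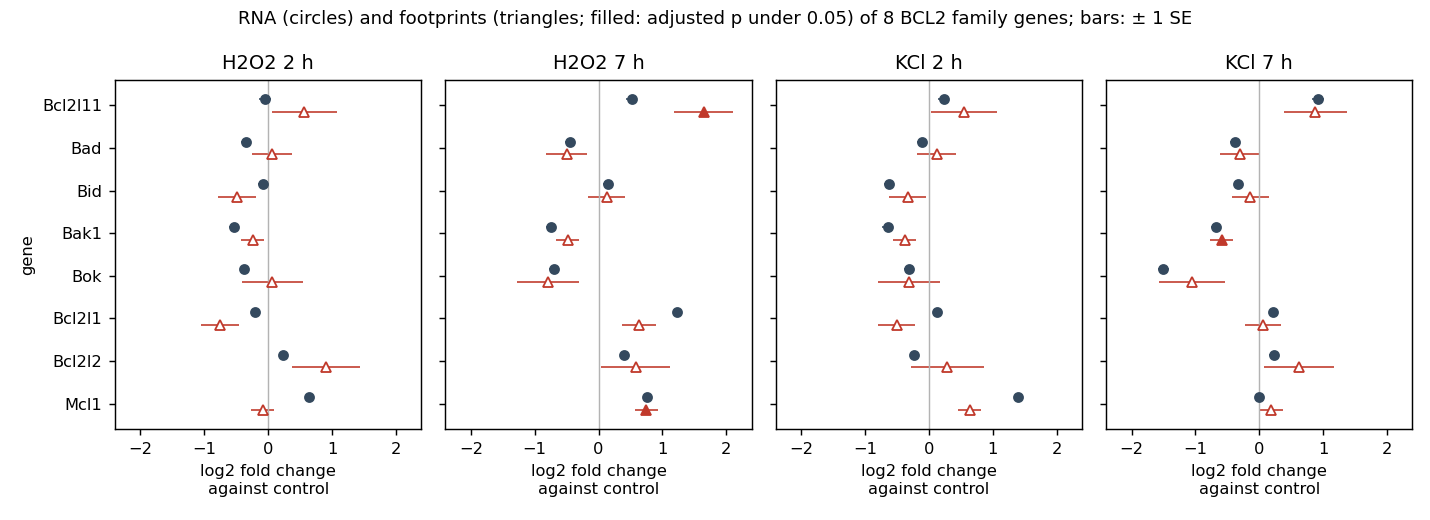
Log2 fold change against control (x axis) of RNA (circles) and footprints (triangles, filled where the footprint change passed the test) for the 8 tested genes (y axis) in 4 groups; bars are 1 standard error. With 2 h KCl Mcl1 lies at 1.39 in RNA and 0.64 in footprints, and with 7 h H2O2 Bcl2l11 lies at 0.52 in RNA and 1.65 in footprints.

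In unstressed cells the genes differed widely in footprints per RNA. The ratio of mean footprint TPM to mean RNA TPM was 1.29 for Bcl2, on 14 footprint counts, 1.15 for Bid, 1.04 for Mcl1 and 0.905 for Bak1, against a median of 0.639 over 10467 genes. It was 0.250 for Bok and 0.123 for Bcl2l2, which placed them at percentiles 10.8 and 2.59 of those genes, with the doubt about Bcl2l2 reads given above. Bmf, with 2 footprint counts, had 0.0635. Bcl2l2 RNA was more abundant than that of Bcl2l11 (32.3 against 14 TPM), while its footprints, 16 counts in all, were at 3.98 TPM against 6.71 TPM from 26 counts.

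Of 14 further genes of the wider BCL2 family, 8 were tested in the heat experiment and 9 in the other. Beside the counts for this and the following lists stand the shares of all genes called, 71.0% at 44 °C, 63.6% at 42 °C, 53.9% and 70.5% with 2 h and 7 h H2O2, and 54.2% and 68.8% with 2 h and 7 h KCl. At 44 °C 4 of 8 were higher (all genes 35.4%) and none lower (35.7%). Among the 4 were Bcl2l15 (2.34 ± 0.39, from 13 to 59 counts), Bik (0.87 ± 0.36) and Pmaip1 (0.29 ± 0.07). The call of Bcl2l15 may have the limit given below for genes scarce in the control. At 42 °C 2 were higher and 4 lower. The largest falls at 42 °C were of the BH3-only genes Bik (-1.79 ± 0.54, on few counts) and Bbc3, which encodes PUMA (-1.31 ± 0.13, edgeR adjusted p 9.14e-07), while Pmaip1 rose by 0.80 ± 0.07. H2O2 raised 4 and lowered 1 at 2 h, and raised 6 and lowered 2 at 7 h. The median log2 fold change at 7 h was 1.16, beside 0.08 over all genes. These counts and the median include the scarce genes Bcl2l15 and Hrk, whose calls the filter favours, as given below. Pmaip1, which encodes NOXA, a BH3-only partner of MCL-1, had 13.2 ± 0.374 CPM (SD, n = 2) in the control and 320 ± 36.8 CPM (SD, n = 2) with 7 h H2O2, a 24.2-fold rise (4.6 ± 0.12, edgeR adjusted p 5.91e-13). It also rose by 2.44 ± 0.12 with 2 h H2O2, 2.10 ± 0.12 with 2 h KCl and 1.87 ± 0.12 with 7 h KCl. Under H2O2, where Bmf was lowest, this BH3-only gene was highest.

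The rarer genes Bcl2l15 (8 counts over both control libraries) and Hrk (3 counts) stood at 554 and 57 counts with 7 h H2O2. At 2 h they stood at 117 and 35 counts, and the size of these rises is imprecise. Genes so scarce in the control pass the filter on low counts through stressed groups, which favours a call of higher. The calls of both genes under H2O2, and of Bcl2l15 with 2 h KCl, carry this bias. KCl raised 4 and lowered 2 at 2 h, among them Bcl2l15 (59 counts) and Bik (-1.0 ± 0.37), and raised 4 and lowered 1 at 7 h, where Bnip3, a BH3-like gene of mitophagy, rose by 1.36 ± 0.07 and Bbc3 fell by 0.98 ± 0.12. The 5 genes not tested in either experiment were Bcl2a1a, Bcl2a1b, Bcl2a1d, Bcl2l10 and Bcl2l14, and Hrk was below the filter in the heat experiment.

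Downstream of the family, the apoptosome and caspase genes (8 genes, all tested) moved with time under H2O2: 4 were lower and none higher at 2 h, and 6 were higher and 1 lower at 7 h, with medians of -0.15 and 0.47. All 8 were higher at 7 h than with 2 h H2O2, beside 37.3% of all genes. At 44 °C 2 were higher and 3 lower, at 42 °C 1 and 5, with 2 h KCl 3 and 4, and with 7 h KCl 3 and 4. Of 6 caspase inhibitors and their antagonists, such as Xiap and Diablo, 3 were higher and none lower with 2 h H2O2, 2 and 2 with 7 h H2O2, 1 and 2 with 2 h KCl, 3 and 1 with 7 h KCl, 3 and 2 at 44 °C, and 1 and 2 at 42 °C. Over all genes 53.9% to 71.0% were called in these 6 comparisons. Among 9 partners and regulators of the family, such as Foxo3, Huwe1 and Trp53, the counts in the same order were 2 and 1, 4 and 2, 3 and 1, 5 and 3, 5 and 3, and 6 and 2.

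The study asked where transcription runs past gene ends into neighbours under stress, and 7 of the 10 genes were in its list of 6399 neighbouring pairs, in 8 pairs. Bmf, Bcl2l11 and Bcl2 were in none. A downstream-of-gene transcript was called for each of the 8 pairs in at least 1 library, as for every pair of the list. After Bcl2l2 it was called in 11 of 16 RNA libraries, after Bid, upstream of Atp6v1e1, in 9, and for the other 6 pairs in 1 to 5. Per library, such a transcript was called for 19.4% to 35.7% of all pairs. Read-in, transcription that reaches the downstream gene, was called in the authors' tables for 1 of the 8, Bcl2l2 into Pabpn1, a gene for a nuclear poly(A)-binding protein, beside 5.45% of all pairs. It was called in 8 of 16 RNA libraries, namely both libraries of the heat control, 44 °C, 2 h H2O2 and 7 h KCl. The deposited read-in estimate, a ratio whose formula the sources used here do not state, was 0.0118 and 0.0159 in the heat control, 0.0493 and 0.0542 under 44 °C, and 0.0143 and 0.0128 under 42 °C. In the other experiment it was 0.0116 and 0.0113 in the control, 0.0327 and 0.0261 with 2 h H2O2, 0.0162 and 0.0170 with 7 h H2O2, 0.0150 and 0.0124 with 2 h KCl, and 0.0348 and 0.0437 with 7 h KCl. The libraries at 44 °C, with 2 h H2O2, with 7 h KCl and, by little, with 7 h H2O2 stood above all control libraries. Read-in was called for 0.547% to 2.95% of all pairs per library.

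**Figure D5:**
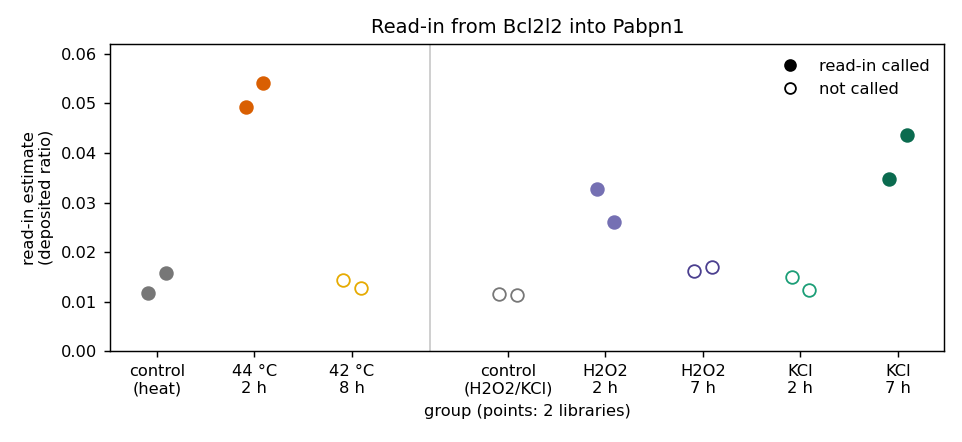
Deposited read-in estimate (ratio, y axis) for Bcl2l2 into Pabpn1 in each RNA library by group (x axis); filled points are libraries with a read-in call. The 44 °C libraries are highest at 0.0493 and 0.0542, and the controls lie between 0.0113 and 0.0159.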

How the data were processed

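PolyA-selected RNA and ribosome footprints were sequenced, the RNA libraries with a New England Biolabs kit per the labels' protocols. STAR, RSEM, Bowtie and the mouse build mm10 were used, per the submitters' processing notes; the sources used here do not give their roles and versions or any use of strand in counting, so overlapping and antisense genes cannot be told apart. The authors deposited expected counts per gene (whole numbers, used as they stand) and TPM values, and, for pairs of neighbouring genes, true or false calls and a read-in ratio. Another 12 columns fitted no sample of the labels and were left unused.

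The expected counts were tested with edgeR 4.0.16 (R 4.3.3; TMM, filterByExpr, quasi-likelihood test, Benjamini-Hochberg adjustment over all genes, threshold 0.05). Heat RNA (12747 genes), H2O2 and KCl RNA (13256 genes) and footprints (10545 genes) were fitted separately, and the groups of a fit shared 1 estimate of the spread. Translational efficiency was an interaction term over footprint and RNA libraries (10480 genes). The scripts were tested on simulated data. Likeness to Bmf used log2 CPM with a prior count of 2, among genes that averaged 1 or more on that scale. Alternatives were RLE scaling, DESeq2 1.42.0, limma 3.58.1 on log2(TPM + 1) with a pseudocount of 1, limma voom for efficiency, no filter, the compared groups alone, a replicate block, and leaving out each library.

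The members and lists were chosen with earlier results of these data known. All 10 members are named. The naming rule for lists takes the 3 largest changes that passed in each RNA comparison with control; it is applied here to the wider BCL2 family, and the other lists are given by counts.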

Additional observations from a re-analysis of the deposited data

Results flagged for a closer look

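In 9 cases a gene differed from control in opposite directions in a pair of conditions, and the difference between the conditions was itself tested. Between the heat regimes these were Bmf (42 °C against 44 °C, log2 difference -2.59, with 0.42 at 44 °C and -2.17 at 42 °C against control) and Bcl2l11 (-1.16, with 0.93 and -0.23). Between 2 h and 7 h H2O2 they were Bcl2 (-1.35) and Bcl2l1 (1.44). Between 2 h and 7 h KCl they were Bmf (3.0), Bcl2 (-1.65) and Bcl2l2 (0.46). Between H2O2 and KCl they were Bcl2l2 at 2 h (0.46) and Bmf at 7 h (-4.09). Each of the 9 differences passed at an edgeR adjusted p under 0.05. The values of Bmf against the H2O2 and KCl control are a description, and those of Bcl2l2 were small, between -0.23 and 0.23. In each case other than Bmf, a call against control that gave the opposite direction was lost when a single library was left out. These calls were Bcl2l11 at 42 °C, Bcl2 and Bcl2l1 with 2 h H2O2, and Bcl2 with 2 h KCl. For Bcl2l2 they were those with 2 h H2O2, 2 h KCl and 7 h KCl.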

How the results depend on the processing

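Of the values for single genes, 1734 were counted as unchanged, 62 no longer passed, 18 newly passed, 26 moved and 8 reversed over all alternatives. A change of sign was counted as unchanged where neither value passed, as for Bok footprints with 2 h H2O2 (-0.67 to 0.83). The number of values that changed sign is therefore larger than the number counted as reversed. Of the counts of genes called, 183 stayed within 1.5 times, 13 were lower beyond that and 6 higher. A count of 0 that stayed at 0 is among the 183. On log2(TPM + 1), which makes no correction for composition, the reversed values were Bcl2l1 (-0.037), Bcl2l2 (-0.13) and Bok (-0.17) at 42 °C, Bcl2l1 (-0.17) and Bak1 (-0.068) at 42 °C against 44 °C, and Bcl2l2 (-0.067) with 7 h KCl. Of these, Bcl2l2 and Bok at 42 °C and Bcl2l1 at 42 °C against 44 °C passed (limma adjusted p 0.0464, 0.0221 and 0.00868). That scale moved the median of all genes by -0.15 at 42 °C (1945 higher and 6287 lower, beside 4041 and 4072), -0.20 at 42 °C against 44 °C (2764 and 6798, beside 4829 and 4743) and 0.10 in footprints with 7 h H2O2, and the splits with 2 h KCl (2567 and 4540, beside 3609 and 3576) and H2O2 against KCl at 2 h (4264 and 1986, beside 3582 and 3212). On it Bmf was at -2.31 and -2.41 with 2 h and 7 h H2O2 and at -1.88 with 2 h KCl. Its mean level in these groups, 0.795, 0.675 and 1.41 TPM, is near the pseudocount of 1, which shrinks such differences. Between the H2O2 times Bmf reversed without the first 2 h library (0.15) or the first 7 h library (0.22), within a range of -0.53 to 0.22. Among counts of genes called in footprints, 2 h KCl gave 1 with RLE scaling, DESeq2 or the replicate block in place of 0, and 7 h KCl gave 0 with DESeq2, no filter or the compared groups alone in place of 1. For efficiency with 7 h H2O2 the compared groups alone gave 1 in place of 0. Leaving out 1 library gave 3 to 5 genes at 42 °C, 4 to 6 between the H2O2 times, 0 to 1 in footprints with 7 h H2O2, 0 in footprints with 7 h KCl, and 1 to 2 for efficiency with 2 h H2O2. Same-numbered replicates deviated together with r of -0.02 to 0.12 in heat RNA, -0.05 to 0.05 in the other RNA and -0.38 to 0.42 in footprints. Over 0.1 were 1 of 3 pairs of groups in heat RNA, 0 of 10 in the other RNA and 6 of 10 in footprints. These values do not settle whether the numbers pair the samples, and pairing of RNA with footprint libraries was not checked. Besides that footprint count, the replicate block changed the call of Bad at 44 °C alone (edgeR adjusted p 0.0478). Among the values that moved are the 13 pro-survival to BH3-only ratios. Adding BH3-only genes outside the 10 to the sum can only lower a ratio, so the falls themselves carry no information. The order against control could change, and it did in both kinds of library. RNA with 7 h H2O2 and 7 h KCl and footprints with 7 h H2O2 went from above the control to below it. Footprints with 2 h H2O2 went from overlapping the control to below it. Footprints with 2 h KCl went from above the control to overlapping it. Footprint depth of 1460751 to 5168537 counts left Bmf and Bcl2 untested.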
